A study of Mus musculus with 91 samples.

Results

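Among 91 single bone marrow stromal cells of the mouse, 14 carried the transcripts of bone matrix, and 24 carried high levels of Cxcl12 together with the bone enzyme gene Alpl. The osteoblast-like side held the cells with Cxcl12 under 5000 CPM (a gene's count scaled to the same total in every cell), Spp1 of at least 1000 CPM and Col1a1 of at least 1000 CPM. The other side, called Alpl-positive CAR cells here, held those with Cxcl12 of at least 5000 CPM and Alpl of at least 50 CPM. Both sides together made up 38 of the 91 cells. Of the rest, 37 had high Cxcl12 with Alpl under its threshold, and 16 had low Cxcl12 without both matrix transcripts. The sides were chosen by these 4 transcripts, so differences between them are described and not tested.

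Osteoblasts are the cells that lay down bone. They secrete type I collagen and acidic matrix proteins, and the phosphatase encoded by Alpl frees phosphate for mineral. CAR cells, the CXCL12-abundant reticular cells, are marrow stromal cells that supply CXCL12 and KIT ligand to blood stem and progenitor cells, and a part of them is known to express genes of the bone or the fat lineage.

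Cells came from crushed bones of C57BL/6 mice and were sorted individually into wells for Smart-seq2, which reads whole transcripts of each cell as a separate library. All gates took cells negative for CD45, Ter119, CD41 and CD71, which mark blood cells, positive for the vibrant dye, and positive for the stromal adhesion molecule VCAM1. CD61, the beta chain of an integrin that binds osteopontin, split most of the cells into a CD61+ gate (39 cells) and a CD61- gate (40 cells), each on plates of its own, and 9 cells were taken as VCAM1+ regardless of CD61. Another 3 cells carried labels that contradict each other and were given no gate; 0 of them lay on either side. No label names an animal, so cells are not replicates of a condition, intervals below cover counting error only, and reads of such libraries are not independent molecules.

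The Cxcl12 threshold lay in a gap between the sides, and the Col1a1 threshold lay close to several cells. With Spp1 and Col1a1 thresholds of 2000 CPM the osteoblast-like side had 9 cells in place of 14, and with 500 CPM it had 16. The lowest Cxcl12 level among the CAR cells was 8396 CPM and the highest among the osteoblast-like cells was 1101 CPM. Over all 91 cells the nearest Cxcl12 values were 5558 CPM above and 3876 CPM below the threshold. Among the cells that met the remaining conditions, the nearest values for Col1a1 were 1126 CPM inside and 818 CPM outside, for Spp1 3349 CPM inside and 0 outside, and for Alpl 78.1 CPM inside and 44.1 CPM outside.

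**Figure D1:**
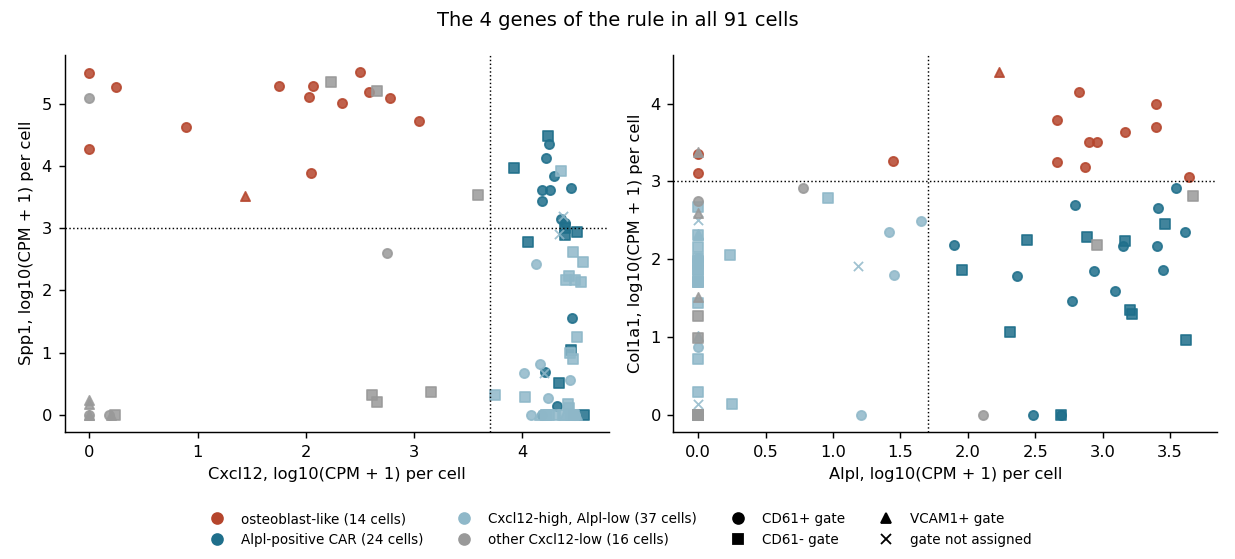
Levels of the 4 genes of the rule in all 91 cells, on log10(CPM + 1) axes, with Spp1 against Cxcl12 on the left and Col1a1 against Alpl on the right; colours mark the sides, shapes the gates and dotted lines the thresholds. The 14 osteoblast-like cells sit at 1101 CPM of Cxcl12 or less, the 24 Alpl-positive CAR cells at 8396 CPM or more.

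The sides differed in their gates. Of the 14 osteoblast-like cells, 13 came from the CD61+ gate (92.9%, exact Clopper-Pearson 95% interval 66.1 to 99.8%) and 1 from the VCAM1+ gate. Of the 24 Alpl-positive CAR cells, 14 came from the CD61+ gate (58.3%, 36.6 to 77.9%) and 10 from the CD61- gate. Read by gate, osteoblast-like cells were 33.3% of the CD61+ cells (19.1 to 50.2%) and 0 of 40 CD61- cells, for which the interval reaches 8.81%. The 0 rests on the Col1a1 threshold: with Spp1 and Col1a1 thresholds of 500 CPM the side had 16 cells, 14 of the CD61+ gate and 1 of the CD61- gate. That one, CD61- cell 2, had 159690 CPM of Spp1, 4650 CPM of Alpl and 649 CPM of Col1a1, and CD61- cell 29 had 229244 CPM of Spp1 with 151 CPM of Col1a1. Alpl-positive CAR cells were 35.9% of CD61+ and 25% of CD61- cells. By plate, 10 of the 13 CD61+ osteoblast-like cells came from plate P2CD61plus, with 7 CAR cells, and 3 from plate P1CD61plus, also with 7 CAR cells.

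Depth was alike on both sides, and the number of genes was not. The median total count was 2278100 per osteoblast-like cell (1332330 to 6037040) and 2221810 per CAR cell (824954 to 4991550). Median deposited genes per cell, those reaching 4 counts, were 5622 and 4521. Genes with any count after thinning every cell to 500000 counts, a different measure, had medians of 5707 and 4850.5. The 10 genes with the most counts took 27.7% of all counts on the osteoblast-like side and 9.93% on the CAR side, and mitochondrial genes took a median of 1.43% and 1.33% per cell. No cell of either side reached 10 CPM of Ptprc, which encodes CD45, or of the endothelial gene Cdh5.

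One cell stood apart and is named wherever a value rests on it. The osteoblast-like cell of the VCAM1+ gate carried 297552 CPM of Bglap, where the other 13 cells lay between 0 and 6892 CPM, and its VCAM1 intensity was -89, below all others of the 38 cells and against its gate label. Its Spp1 level, 3349 CPM, was the lowest of its side and its Col1a1 level, 25753 CPM, the highest. Cells are named below by gate and a running number that only identifies them.

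Genes were compared by their summed counts over the cells of a side, on the CPM scale. A gene was called when the summed levels differed at least 4-fold and counts were present in 50% or more of the higher side's cells. Of 12183 genes tested, 265 were called higher in the osteoblast-like cells, 2.18% of those tested, and 868 were called lower, 7.12%. The median of all tested genes was -0.69 on the log2 scale (osteoblast-like over CAR). Factors from edgeR's TMM and from DESeq2 moved that centre up by 0.57 and 0.62 and changed the split to 456 higher and 540 lower, and to 483 and 526; without the 10 genes with the most counts in osteoblast-like cells the split was 380 and 619. The direction of a list near the centre is therefore read only against the median of all genes.

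Within the CD61+ gate alone, 11023 genes were tested, of which 342 were called higher (3.1%) and 1072 lower (9.73%). Of the 265 genes called higher, 175 were called there as well, and 223 pointed the same way in both CD61+ plates. For the 868 genes called lower these numbers were 657 and 796. In 163 of the 265 and 581 of the 868 the difference stayed at 4-fold or more whichever 1 cell was left out. The rule used the same contrast, so these shares carry no evidence of their own.

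Few genes separated the sides cell by cell. Outside the rule, Aqp1 alone was higher in every osteoblast-like cell than in every CAR cell (with Col1a1, 2 genes or 0.0164% of those tested). For Aqp1 this rested on a trace in CD61+ cell 10. Its 0.685 CPM is the smallest level above 0 that its total of 1459554 counts allows. In the other direction 7 genes did so (0.0575%): Cxcl12 itself, and Cxcl14, Fbln5, Gas6, Igfbp4, Igfbp7 and Lpl.

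The genes with the largest difference toward the osteoblast-like side were nearly silent in the CAR cells. Aqp1 encodes a water channel. Its levels ran from 0.685 CPM over a median of 148 to 563 CPM in the 14 osteoblast-like cells, with a count in 14 of 14, and it had a count in 0 of 24 CAR cells. Set against a floor of 3 counts over the CAR side, it was at least 3528-fold higher. Levels were uneven within the side: 11 cells had 76.6 CPM or more, while CD61+ cell 35, the VCAM1+ cell and CD61+ cell 10 had 8.03, 1.16 and 0.685 CPM.

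Ifitm5 encodes a bone-restricted membrane protein of osteoblasts, also called BRIL, in which mutations cause brittle bone. It ran from 0 over a median of 332 to 2616 CPM, with counts in 11 of 14 osteoblast-like and 0 of 24 CAR cells, and was at least 13536-fold higher. Without CD61+ cell 36, which held the most, the bound was 7999-fold. Dmp1, an acidic matrix protein of osteocytes and late osteoblasts, ran from 0 over 238 to 1709 CPM, with counts in 11 of 14 cells against 1 of 24. A single count stood on the CAR side, so that only an interval is given for the ratio, 3929 to 864920, or 1937 to 426579 without CD61+ cell 35. Osteoblast-like cells without Dmp1 or Ifitm5 were therefore present, and CAR cells with more than a trace of either were not seen.

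In mm10 (GENCODE M21) Aqp1 lies at chr6:55336432-55348555 on the plus strand, Ifitm5 at chr7:140948958-140950291 on the minus strand and Dmp1 at chr5:104202613-104214102 on the plus strand, all protein-coding. The sequences before the start of these 3 genes are shown because they lead the osteoblast-like side, with Bglap added as the classical osteoblast gene. Each is the stretch from 250 to 51 bases before the start in RefSeq (build GRCm38.p6), 5′ to 3′ on the gene's strand. Capitals mark AACCACA, a core motif of the Runx factors, searched on both strands. The stretches are chr6:55336049-55336248 (plus strand) for Aqp1, chr7:140950294-140950493 (minus) for Ifitm5, chr5:104202367-104202566 (plus) for Dmp1 and chr3:88384517-88384716 (minus) for Bglap.
Aqp1: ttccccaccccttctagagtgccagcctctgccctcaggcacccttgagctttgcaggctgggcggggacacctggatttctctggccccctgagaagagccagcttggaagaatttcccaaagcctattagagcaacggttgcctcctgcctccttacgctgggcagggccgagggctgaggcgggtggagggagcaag
Ifitm5: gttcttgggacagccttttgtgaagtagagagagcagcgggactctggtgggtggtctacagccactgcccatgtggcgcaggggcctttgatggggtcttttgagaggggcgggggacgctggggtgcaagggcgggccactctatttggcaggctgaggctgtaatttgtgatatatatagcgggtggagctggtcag
Dmp1: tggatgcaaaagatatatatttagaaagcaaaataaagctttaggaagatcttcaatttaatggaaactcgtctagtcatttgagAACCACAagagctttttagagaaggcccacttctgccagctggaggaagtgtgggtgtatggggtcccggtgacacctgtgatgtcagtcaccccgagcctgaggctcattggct
Bglap: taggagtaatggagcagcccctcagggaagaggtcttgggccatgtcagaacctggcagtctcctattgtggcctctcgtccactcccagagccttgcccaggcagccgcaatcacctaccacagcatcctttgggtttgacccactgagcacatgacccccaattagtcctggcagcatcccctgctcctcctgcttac
The motif began 165 bases before the start of Dmp1 and occurred in none of the other printed stretches, nor before another RefSeq start of Dmp1. Only this exact form was searched. The Bglap stretch holds taccaca, which differs from it in the first base alone, so the search does not show that Bglap lacks a Runx site. Among all 32851 promoters of the table, 3.5% held it in the same window. Of the 14 genes with the largest difference toward the osteoblast-like side, 10 were in the promoter table, and Dmp1 was the only one with the motif; of the 14 toward the CAR side, 9 were in the table and 0 had it. A match describes letters in a window and not a bound site.

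Other leading genes had the same shape, with counts in most osteoblast-like cells and in none or few CAR cells. Col13a1, a transmembrane collagen, had 0 to 303 CPM (median 102) in 13 of 14 cells and no count in 24 CAR cells, at least 2123-fold higher. Cdh15, a cadherin known from muscle precursors, had counts in 11 cells against 0, at least 2068-fold. Dlx3, a homeobox factor of osteoblasts, had counts in 10 against 0 cells, at least 886-fold. Cspg4, the NG2 proteoglycan, had counts in 12 of 14 cells (median 20.1 CPM, highest 114) against 1 of 24, where the single CAR cell had 0.53 CPM. Bmp3, a BMP family member known to restrain bone formation, had counts in 12 against 2 cells and summed to 94.1 against 0.163 CPM. The Bmp3 sums differed 578-fold; without CD61+ cell 30, 1 count was left on the CAR side, and the interval of the ratio began at 901. Further genes chosen by the same rule were Lipc, Ccdc194, Col2a1, Tspan11, Cyb561 and Rcor2. Lipc, hepatic lipase, was at least 2997-fold higher, or at least 1353-fold without the VCAM1+ cell, and Rcor2, a partner of a repressor complex, had a ratio with a counting interval of 265 to 7928, on few counts in 2 CAR cells. Within the CD61+ gate each of these 11 genes was called as well, except Rcor2.

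**Figure D2:**
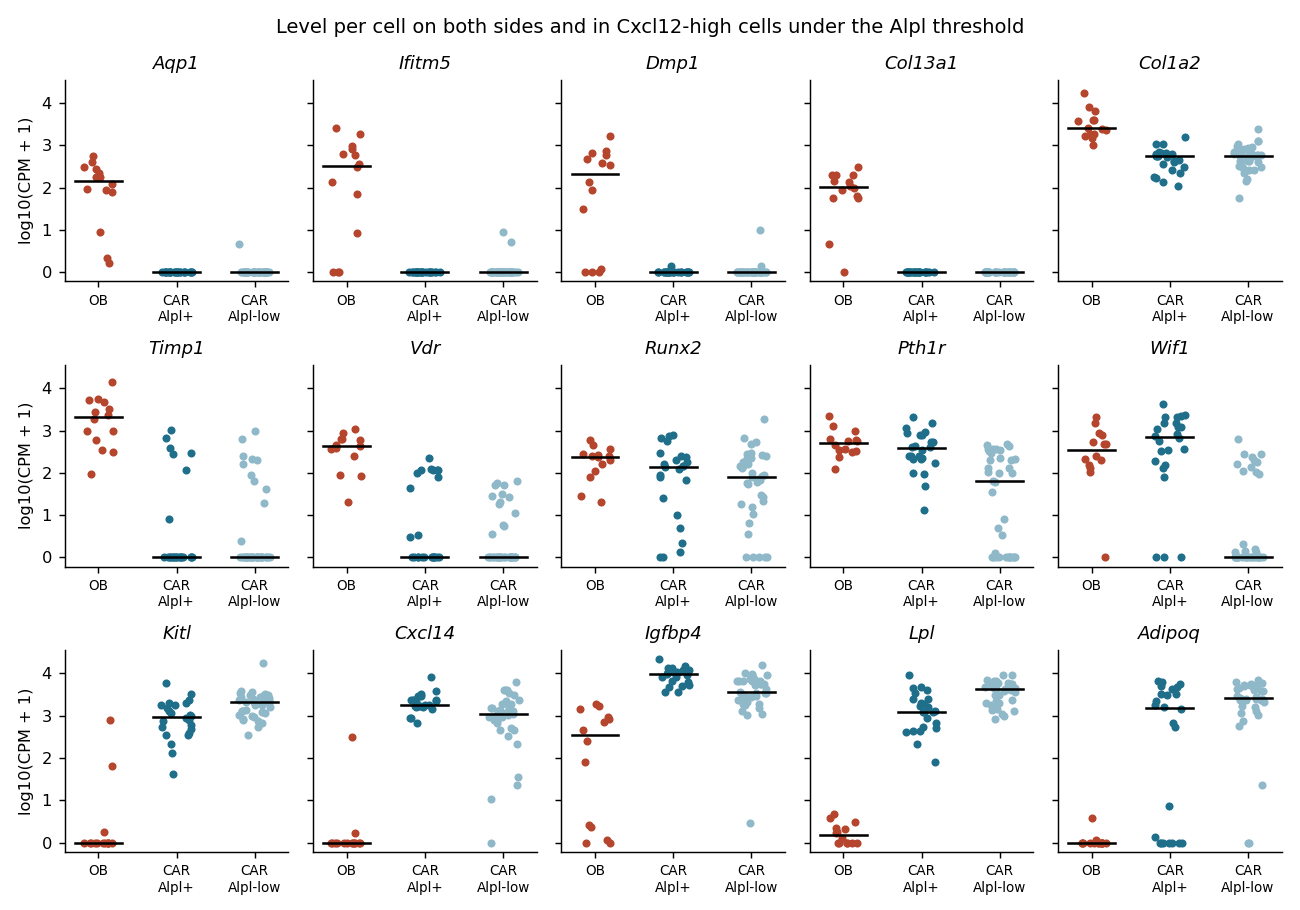
Level of 15 genes per cell, on a log10(CPM + 1) axis, in the 14 osteoblast-like cells (OB), the 24 Alpl-positive CAR cells and the 37 Cxcl12-high cells under the Alpl threshold; bars are medians. Aqp1, Ifitm5 and Col13a1 have no count in any Alpl-positive CAR cell, Runx2 and Pth1r overlap, and Lpl is at 3.63 CPM or less in every osteoblast-like cell.

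Among the proteins of bone matrix, 6 of 17 tested genes were called higher (35.3%, beside 2.18% of all genes) and 3 lower (17.6%, beside 7.12%). The list median was -0.04, beside -0.69 for all genes. Ibsp, bone sialoprotein, was high on both sides: 1911 CPM at the lowest, 11758 at the median and 25922 at the highest in osteoblast-like cells, against 84.9, 3178 and 10005 CPM in CAR cells. The sums differed 3.48-fold and missed the call; without the VCAM1+ cell they differed 4.01-fold. Sparc, osteonectin, ran from 7378 over 14137 to 81209 CPM against 1211, 5052 and 9986 CPM, 4.74-fold in sums and 2.87-fold without the VCAM1+ cell. In both genes the upper part of the osteoblast-like cells lay above all CAR cells, 10 of 14 for Ibsp and 9 of 14 for Sparc.

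Osteocalcin, the hormone-like calcium-binding protein of bone encoded by Bglap and Bglap2 (chr3:88383501-88384464 and chr3:88377736-88378699 in mm10, both on the minus strand), was set by 1 cell. Bglap summed to 47819 CPM against 712 CPM, 67.2-fold, yet 97.6% of the osteoblast-like counts sat in the VCAM1+ cell. Without it the sum was 1352 CPM, 1.9-fold above the CAR side, and the call was lost. Bglap2 went from 20.5-fold to 2.26-fold in the same way, and Bglap3, a neighbouring copy, from 34.7-fold to 2.93-fold. Counts of Bglap were found in 12 of 14 osteoblast-like and 8 of 24 CAR cells, the highest CAR cell reached 5501 CPM, and 2 osteoblast-like cells lay above it. Reads of these near-identical copies may have been shared out between them by the authors' counting.

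The remaining calls among matrix proteins went both ways. Postn, periostin of the periosteum and collagen-rich tissue, had counts in 13 of 14 cells (median 816 CPM) against 6 of 24, 17.8-fold higher, or 40-fold without CD61- cell 33. Ogn, the small proteoglycan osteoglycin, was 32-fold lower, with counts in 3 of 14 against 23 of 24 cells, and 154-fold lower without CD61+ cell 3. Fbn1, fibrillin of microfibrils, was 7.66-fold lower. Omd, a related leucine-rich proteoglycan, was 4.28-fold lower, or 6.76-fold without CD61+ cell 3. Of 6 tested osteocyte genes, Dmp1 and the actin-capping gene Capg were called higher (33.3%, beside 2.18% of all genes) and 0 lower. Capg was 6.19-fold higher, or 65.6-fold without CD61+ cell 4 of the CAR side. Mepe, an osteocyte phosphoglycoprotein, had counts in 5 of 14 against 0 of 24 cells, too few cells for a call, and Phex, its processing partner in phosphate control, had 30.6 against 40.8 CPM.

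Collagen genes split by type. Of 20 tested, 5 were called higher (25%, beside 2.18% of all genes) and 3 lower (15%, beside 7.12%). The list median was 1.01, and without plate P2CD61plus, which left 4 osteoblast-like cells, it was -1.35. Col1a2, the partner chain of Col1a1 in type I collagen, had 1003 CPM at the lowest, 2555 at the median and 17741 CPM at the highest in osteoblast-like cells, against 110.4, 557 and 1611 CPM in CAR cells. Its sums differed 11.6-fold, or 7.24-fold without the VCAM1+ cell, and 12 of 14 osteoblast-like cells lay above every CAR cell. Col22a1, a collagen of tissue junctions, had counts in 13 against 6 cells and differed 136-fold, or 392-fold without CD61+ cell 37 of the CAR side. Col6a3, a chain of microfibrillar type VI collagen, differed 8.4-fold, and 20.1-fold without CD61+ cell 15 of the CAR side. Col11a1, a fibril-nucleating chain, differed 7.39-fold in all cells, 3.2-fold without the VCAM1+ cell and 23.8-fold without CD61+ cell 31 of the CAR side.

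Basement membrane collagen went the other way. Col4a1 had 0 counts in all 14 osteoblast-like cells and ran from 0 over 254 to 1365 CPM in the CAR cells, with counts in 23 of 24, at least 3421-fold lower in osteoblast-like cells. Its head-to-head neighbour Col4a2 had counts in 0 against 21 cells and was at least 846-fold lower. Col8a1, a network-forming short-chain collagen, had counts in 10 of 14 osteoblast-like cells, up to 107 CPM, and 88.6 to 1325 CPM in CAR cells, 18.5-fold lower. In the Cxcl12-high cells under the Alpl threshold its median was 82.3 CPM, against 482 CPM in the Alpl-positive ones.

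The collagen-folding and crosslinking genes were nearer to each other on both sides than the collagens. Of 25 tested, Plod2, Loxl2 and Loxl4, all of them collagen hydroxylating or crosslinking enzymes, were called higher (12%, beside 2.18% of all genes). Tmem38b, an ion channel of the endoplasmic reticulum, was called lower (4%, beside 7.12%). The list median was 0.24. Loxl4 had counts in 8 against 0 cells and was at least 446-fold higher, or at least 292-fold without the VCAM1+ cell. Plod2 missed the call without the VCAM1+ cell (4.45-fold, then 3.39-fold) and Loxl2 without CD61+ cell 23 (4.79-fold, then 2.32-fold). Serpinh1, the collagen chaperone gene, had medians of 1799 and 841 CPM and differed 2.22-fold, and P4hb, a subunit of prolyl hydroxylase, had medians of 766 and 615 CPM.

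Mineralization genes gave the second highest list median, 3.74 over 10 tested genes, and without plate P2CD61plus it was 0.76. Of the 10, 3 were called higher (30%, beside 2.18% of all genes) and 2 lower (20%, beside 7.12%). Enpp1, which makes the mineral inhibitor pyrophosphate, had a median of 70.9 CPM against 1.59 CPM and was 9.87-fold higher. Ank, a pyrophosphate and ATP exporter, was 25.1-fold higher, with counts in 12 of 14 against 4 of 24 cells. Fam20c, the kinase that phosphorylates secreted matrix proteins, was 18-fold higher, with counts in 13 of 14 against 5 of 24 cells. These 3 differences were 18.7-, 48.5- and 34.9-fold without CD61+ cell 26, CD61- cell 13 and CD61+ cell 37 of the CAR side.

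The 2 genes called lower were Slc20a2, a phosphate importer, 53.4-fold lower with counts in 3 against 15 cells (262-fold without CD61+ cell 14), and Mgp, the mineralization inhibitor matrix Gla protein. Mgp had counts in 2 of 14 osteoblast-like and 12 of 24 CAR cells, where it reached 9155 CPM. Its median was 1.4 CPM in the Alpl-positive CAR cells and 2654 CPM in the Cxcl12-high cells under the Alpl threshold. The 73.9-fold difference rested on the CAR side's upper cells, and CD61+ cell 8 held 99.5% of the osteoblast-like counts; without that cell the difference was 14596-fold. Alpl belongs to the rule: it summed to 1020 CPM in osteoblast-like and 1402 CPM in CAR cells, and 2 osteoblast-like cells, CD61+ cells 35 and 10, had none.

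**Figure D3:**
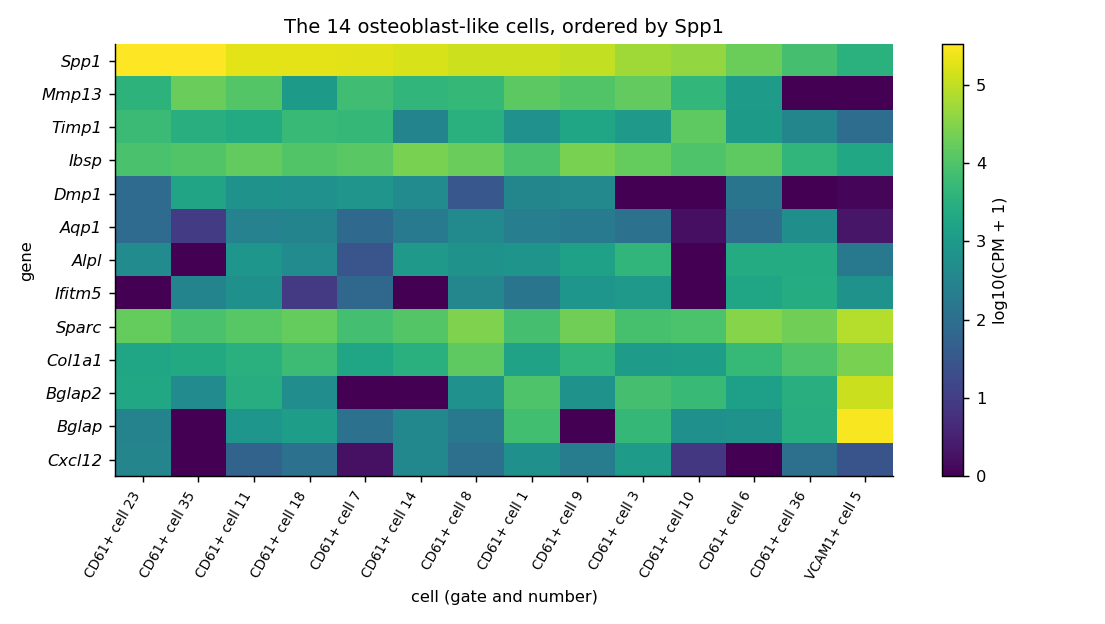
Levels of 13 genes, on a log10(CPM + 1) colour scale, in each of the 14 osteoblast-like cells ordered by Spp1 from left to right. Mmp13 has no count in the 2 cells with the lowest Spp1, CD61+ cell 36 and the VCAM1+ cell, and Bglap reaches 297552 CPM in the VCAM1+ cell.

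The 14 cells were not uniform among themselves. Mmp13, the collagenase of bone, ran from 1013 to 18341 CPM in the 12 cells with the higher Spp1 levels and had no count in CD61+ cell 36 and the VCAM1+ cell, where Spp1 was at 7647 and 3349 CPM. These cells had 2616 and 641 CPM of Ifitm5, and 0 and 0.166 CPM of Dmp1. Ibsp was at 4310 and 1911 CPM in them and at 8449 CPM or more in the other 12. They came from plates P1CD61plus and P210X, and no plate effect was tested. With 14 cells the groups cannot be called types.

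Some transcription factors of the osteoblast lineage, Runx2 and Sp7 among them, had CPM sums less than 2-fold apart. Of 19 tested, 3 were called higher (15.8%, beside 2.18% of all genes) and 1 lower (5.26%, beside 7.12%). The list median of -0.18, beside -0.69 for all genes, leaned to the osteoblast-like side. Runx2, the master regulator of the lineage, had 19.5, 242 and 600.4 CPM (lowest, median, highest) in osteoblast-like cells and 0, 140.2 and 795 CPM in CAR cells, and the sums, 209.9 and 179.6 CPM, differed 1.17-fold (counting interval 1.14 to 1.2). Sp7, osterix, which acts after Runx2, had medians of 74.5 and 68.8 CPM, with counts in 13 of 14 and 16 of 24 cells, and differed 1.33-fold (1.27 to 1.38). In both genes the sides overlapped, and the 3 and 2 cells above the whole osteoblast-like range were CAR cells. CAR cells also lay below that range for Runx2, at 0 to 9.32 CPM in CD61- cells 13, 21 and 30 and CD61+ cells 4, 26 and 32. Read against the median of all genes, -0.69 on the log2 scale, both genes leaned to the osteoblast-like side. Dlx5, a homeobox activator of Runx2 and Sp7, was higher on the CAR side without a call, with medians of 123 and 201 CPM.

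The factors called higher in osteoblast-like cells included Dlx3, given above, and Mef2c. Mef2c, a regulator of Sost in osteocytes, had 23.3 to 623 CPM (median 403) in the osteoblast-like cells; in CAR cells its median was 0, with counts in 9 of 24 cells and a highest value of 999 CPM. It differed 5.66-fold, and 10.7-fold without CD61+ cell 15 of the CAR side. Snai2, a mesenchymal repressor, was 12.3-fold lower, with medians of 11.6 and 340.5 CPM, or 23.6-fold without CD61+ cell 8.

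Among 20 receptors for hormones and growth factors, 1 was called higher (5%, beside 2.18% of all genes) and 5 lower (25%, beside 7.12%). Vdr, the vitamin D receptor, was the only one of 20 tested called higher: 19.2, 432 and 1099.6 CPM against 0, 0 and 219 CPM, 12-fold, with 11 of 14 osteoblast-like cells above every CAR cell. Pth1r, the parathyroid hormone receptor, overlapped, with 121, 502 and 2193 CPM against 12, 378 and 2143 CPM, 1.21-fold. Lifr, the receptor for LIF, had medians of 766 and 717 CPM. Among the 5 genes called lower were Lepr, the leptin receptor and a usual label of marrow stroma (11.5-fold), Fgfr2 (6.76-fold), the endothelin receptor gene Ednra (55-fold) and the EGF receptor gene Egfr (7.76-fold). Fgfr2 was higher in the Alpl-positive CAR cells, with a median of 297 CPM, than in the osteoblast-like cells (48.5 CPM) and the Cxcl12-high cells under the Alpl threshold (58.7 CPM). The Lepr difference was 22-fold without CD61+ cell 3. For Ednra 1 count was left without CD61+ cell 1, and the interval of its ratio began at 398.

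Of 23 matrix proteases and their inhibitors, 4 were called higher (17.4%, beside 2.18% of all genes) and 1 lower (4.35%, beside 7.12%). The list median was 0.15, beside -0.69 for all genes. Mmp13 itself was 6.22-fold higher, with medians of 4657 and 639 CPM, and 23 of 24 CAR cells had a count. Timp1, an inhibitor of metalloproteases, ran from 93.4 over 2103 to 14249.6 CPM, in 14 of 14 cells, against 0, 0 and 1009 CPM with counts in 7 of 24 cells; it was 19.7-fold higher, or 29.8-fold without CD61+ cell 34 of the CAR side. Timp3, of the same family, was 4.97-fold higher, or 13.6-fold without CD61+ cell 37 of the CAR side. Serpinf1, which encodes the antiangiogenic PEDF and is mutated in brittle bone, was 6.53-fold higher but 1.74-fold without the VCAM1+ cell. Serpine2, a protease inhibitor abundant on both sides, had medians of 15167 and 4629.9 CPM and was not called. Mmp11, a stromelysin, was 6.89-fold lower, or 11.9-fold without CD61+ cell 35.

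Of 6 genes listed as markers of osteogenic CAR cells, Mmp13 and Bmp3 were called higher in osteoblast-like cells and Kcnk2 lower, and 3 were not called. The shares were 33.3% and 16.7%, beside 2.18% and 7.12% of all genes. Wif1, a secreted Wnt inhibitor, had 0, 369.6 and 2118 CPM in osteoblast-like cells and 0, 718 and 4208 CPM in Alpl-positive CAR cells, with counts in 13 of 14 and 21 of 24 cells. Its median was 0 in the 37 Cxcl12-high cells under the Alpl threshold. Limch1, an actin-associated gene, had medians of 408, 749 and 20.2 CPM in the same order. Kcnk2, a potassium channel gene, was 9.11-fold lower in osteoblast-like cells, with medians of 17.5, 98.5 and 0 CPM. Levels of this kind follow in part from the Alpl threshold that separates the groups.

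To see what the sides had in common, genes were counted that differed less than 2-fold between them, were counted in 50% or more of the cells on both, and lay at least 4-fold above the summed level of the 37 cells under the Alpl threshold. There were 30 such genes, 0.246% of those tested, Alpl among them; this rule was chosen after the values were seen. Slc36a2, a proton-coupled amino acid transporter, summed to 278 and 172 CPM against 1.37 CPM in the 37 cells. Sp7 summed to 117 and 88.1 against 5.15 CPM, Fn1, fibronectin, to 49.7 and 54.9 against 1.95 CPM, and Wif1 to 488 and 912 against 56.2 CPM. Olfml3, an olfactomedin-like secreted protein, summed to 424 and 652 against 63 CPM, and Ncam1, a neural cell adhesion molecule, to 122 and 168 against 13.9 CPM. Lrp4, the receptor that binds sclerostin, Sdc3, a syndecan, Unc5b, a netrin receptor, and Dlx6, a homeobox factor, were also among the 30. The 2-fold limit was on CPM sums, and the set depends on the scaling. Factors from TMM and DESeq2 move the log2 ratios up by 0.57 and 0.62. Slc36a2 (log2 ratio 0.69), Lrp4 (0.71) and Unc5b (0.92) would then differ by more than 2-fold, and Sp7 (0.41) would with the DESeq2 factors. Typical cells could differ as well. Medians were 47.4 and 0.498 CPM for Fn1, 234 and 11.4 for Slc36a2, and 0.62 and 0.6 for Dlx6, so fewer cells carried those sums. Both medians were well above 0 for Sp7 (74.5 and 68.8 CPM) and Wif1 (369.6 and 718). The same held for Olfml3 (452 and 636) and Ncam1 (51 and 85.2).

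The CAR side carried the factors that support blood cells. Of 16 niche factors tested, 0 were called higher and 12 lower (75%, beside 7.12% of all genes) in osteoblast-like cells. The list median was -5.2, beside -0.69 for all genes. Kitl, KIT ligand, ran from 40.8 over 932 to 5939 CPM in CAR cells and had counts in 3 of 14 osteoblast-like cells, 22.7-fold lower in sums. CD61+ cell 3 held 82% of the osteoblast-like counts, 811 CPM, and without it the difference was 119-fold. Cxcl14, a chemokine that can bind the CXCL12 receptor, ran from 664 over 1829 to 8021 CPM in the CAR cells and had counts in 2 of 14 osteoblast-like cells, the highest of them CD61+ cell 3 with 314 CPM, 120.1-fold lower. Without that cell 1 count was left, and the interval of the ratio began at 14086. Gas6, ligand of the TAM receptors, was 88.5-fold lower, with 477 to 3482 CPM in CAR cells and at most 175 CPM in the others.

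Other niche factors had the same direction. Il7, the lymphoid cytokine, had counts in 2 of 14 against 20 of 24 cells, Angpt1, the TIE2 ligand, in 2 against 19 (65.5-fold, with 2 counts left and an interval of 297 to 8864 without CD61+ cell 14), and Il34, a ligand of the macrophage receptor CSF1R, in 0 against 14 cells, at least 2997-fold lower. Vcam1 was 13.3-fold lower, with medians of 78.3 and 759.7 CPM. Bmp4 was 34.1-fold lower and Esm1, an endothelial-type proteoglycan, 68.8-fold, or 83.2- and 2407-fold without CD61+ cell 3. Csf1, the macrophage growth factor, was not called, with medians of 261 and 422 CPM, and Tnfsf11, the osteoclast factor RANKL, summed to 47.7 and 51 CPM with counts in 8 of 14 and 13 of 24 cells.

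CD61+ cell 3 was the osteoblast-like cell with the most CAR-type transcripts. Besides the highest Cxcl12 of its side, 1101 CPM, it had the largest effect when left out on 17 of the 59 listed genes called lower whose difference moved over 1.5 times with some cell. The 868 genes called lower summed to 36463 CPM in it and to 5801 to 21287 CPM in the other 13, against 103586 to 275871 CPM in the CAR cells. The 265 genes called higher summed to 110967 CPM in it, within the range of its side (85637 to 586047 CPM) and above that of the CAR cells (7313 to 47084 CPM). These genes were chosen by the contrast, which fixes the gap between the sides. Cell doublets were not called; its part in these values was not tested.

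Transcription factors of reticular cells were lower or alike, with 6 of 16 called lower (37.5%, beside 7.12% of all genes) and 0 higher. The list median was -1.69, beside -0.69 for all genes. Ebf1 ran from 0 over 32.2 to 174 CPM against 77.3, 256 and 802 CPM, 8.1-fold lower, and Ebf3 had counts in 1 of 14 against 22 of 24 cells; both factors keep CAR cells in their state. Foxc1, needed for CAR cell formation, was 5.99-fold lower, with medians of 2.52 and 28.6 CPM, or 11.8-fold without CD61+ cell 10. Nfia, Meis2 and Klf9 were the other 3; Meis2 was 8.19-fold lower, or 33.1-fold without CD61+ cell 14.

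The fat-lineage genes were lower in the osteoblast-like cells, with 8 of 16 called lower (50%, beside 7.12% of all genes) and 0 higher. The list median was -3.44. Lpl, lipoprotein lipase, had at most 3.63 CPM in osteoblast-like cells and 79.3, 1248 and 8985 CPM in CAR cells, 2370.2-fold lower in sums, and its median in Cxcl12-high cells under the Alpl threshold was 4255 CPM. Adipoq, adiponectin, had counts in 2 of 14 osteoblast-like cells, at most 2.74 CPM, and in 17 of 24 CAR cells, with a median of 1559 and a highest value of 6658 CPM. On 5 counts in the osteoblast-like cells the interval of the ratio was 8076 to 58045, and without CD61+ cell 10, which left 1 count, the interval began at 16271. The other 7 CAR cells thus carried Alpl and Cxcl12 with no Adipoq count. Pparg, the master factor of fat cells, had counts in 0 against 12 cells, and Cebpa, its partner, in 5 against 21, 13.3-fold lower, or 20.1-fold without CD61+ cell 11. Angptl4, a lipase inhibitor, was not called, with medians of 252 and 276 CPM.

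Secreted proteins of reticular cells gave the lowest list median, -5.29, with 19 of 24 called lower (79.2%, beside 7.12% of all genes) and 0 higher. Apoe, the lipid carrier, ran from 0 over 4273 to 14398 CPM in CAR cells and had counts in 3 of 14 osteoblast-like cells, 96.4-fold lower, or 219-fold without CD61+ cell 3. Rarres2, which encodes chemerin, had counts in 0 of 14 against 19 of 24 cells, at least 11439.9-fold lower. Fbln5, an elastic fibre protein, had at most 283 CPM against 606 to 3263 CPM, 65.2-fold lower (205-fold without CD61+ cell 3). Gpx3, a secreted peroxidase, kept counts in 14 of 14 cells, with medians of 1198 and 6202 CPM, 6.46-fold lower. Serping1, the C1 inhibitor, was 15.8-fold lower, and Trf, transferrin, 45.9-fold; without CD61+ cell 3 the former was 53-fold lower.

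**Figure D4:**
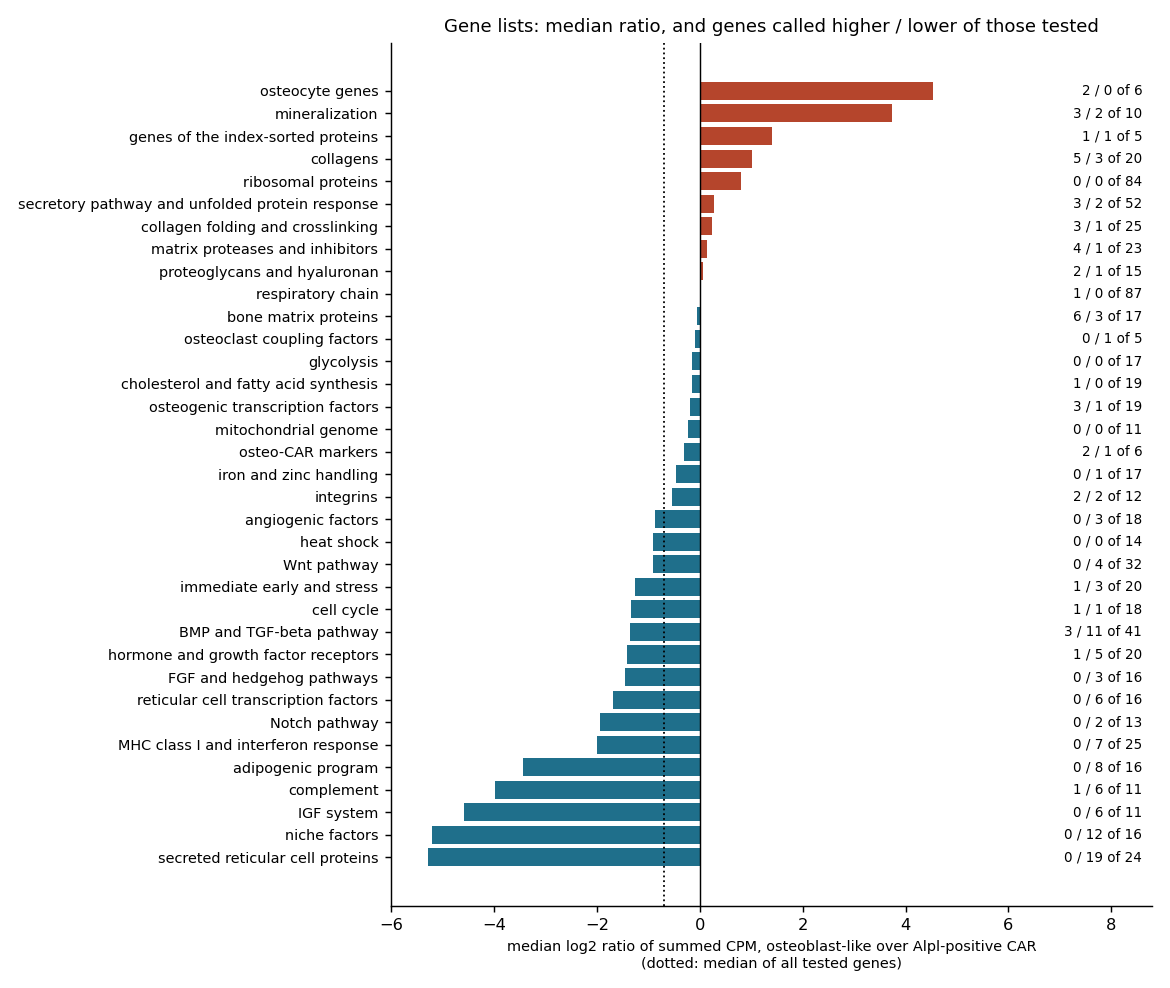
Median log2 ratio of summed CPM (osteoblast-like over Alpl-positive CAR cells) of each gene list with at least 5 tested genes, with the number called higher and lower of those tested at the right; the dotted line is the median of all tested genes, -0.69. Osteocyte and mineralization genes lie highest, secreted reticular proteins and niche factors lowest.

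In the IGF system 6 of 11 genes were called lower (54.5%, beside 7.12% of all genes) and 0 higher, with a list median of -4.58. Igf1 itself had counts in 1 of 14 against 23 of 24 cells, where it reached 1821 CPM; it was 3574-fold lower, and at least 5724-fold without CD61+ cell 6, the only osteoblast-like cell with a count. Igfbp4, a binding protein that holds IGF back, ran from 0 over 359 to 1850 CPM against 3677, 9874 and 21734 CPM, 23.8-fold lower, with no overlap of the sides. Igfbp7 was 34.1-fold lower and Igfbp5 523-fold; without CD61+ cell 6 the latter had 1 count left, and the interval of its ratio began at 3605. Pappa, the protease that cleaves IGFBP4, with no count in the osteoblast-like cells, and Irs1, an adaptor of the IGF receptor, were also called lower; Irs1 was 5.69-fold lower, or 10.6-fold without CD61+ cell 8.

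Of 41 BMP and TGF-beta genes, 3 were called higher (7.32%) and 11 lower (26.8%), with a list median of -1.37. Over all genes tested these values were 2.18%, 7.12% and -0.69. Ligands went both ways: Bmp3, given above, and Bmp8a were higher, and Bmp4, Bmp5 and Bmp6 were lower, Bmp5 9.82-fold, or 16.1-fold without CD61+ cell 8. Bmp8a had counts in 12 of 14 osteoblast-like cells (median 110.2 CPM) and in 1 of 24 CAR cells, CD61- cell 13, and differed 7.84-fold, or at least 2017-fold without that cell. Bmp6 was 305-fold lower with counts in 1 against 22 cells, and at least 1859.6-fold without CD61+ cell 1. Of the secreted antagonists, Chrdl1, a chordin-like protein, had counts in 0 of 14 against 23 of 24 cells (median 644 CPM, highest 1704), at least 9082-fold lower, and Grem1, gremlin, in 0 against 20, at least 1042-fold. Fst, follistatin, had counts in 3 against 19 cells and was 16.3-fold lower, or 36.5-fold without CD61+ cell 3. Tgfbr1, a TGF-beta receptor chain, was 7.11-fold higher, or 15.6-fold without CD61- cell 21, and Id3, a BMP target, was not called, with sums of 2076 and 5615 CPM.

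In the Wnt pathway 0 of 32 genes were called higher and 4 lower (12.5%), beside 2.18% and 7.12% of all genes tested. The list median of -0.91 stood near the -0.69 of all genes. The 4 called lower were Dkk3 and Sfrp1, secreted modulators, Rspo3, a Wnt enhancer, and Lgr5, a receptor of R-spondins. Dkk3 had counts in 0 against 16 cells, at least 845-fold lower, and Rspo3 in 4 against 19, 28.1-fold lower, or 61-fold without CD61+ cell 1. Sfrp1 was 50.9-fold lower, or 168-fold without CD61+ cell 6. Lgr5 was 45.5-fold lower but 6.36-fold without CD61+ cell 16 of the CAR side. Ctnnb1, beta-catenin, ran from 78.7 over 284 to 657 CPM against 0, 62.8 and 304 CPM, 3.51-fold, and missed the call. Of 13 Notch genes 2 were called lower, Hey1, a target (6.24-fold, or 29.2-fold without CD61+ cell 35), and Lfng, a modifier of the receptor (10.4-fold, or 18-fold without CD61+ cell 3). Of 16 FGF and hedgehog genes 3 were called lower, Fgfr2, Spry1, a feedback inhibitor (18.3-fold, or 84.3-fold without CD61+ cell 35), and Ptch1, the hedgehog receptor (8.13-fold, or 13.2-fold without CD61+ cell 8). Both lists had 0 genes called higher. The shares called lower were 15.4% for Notch and 18.75% for FGF and hedgehog, on few genes, beside 7.12% of all genes. The list medians were -1.94 and -1.45, beside -0.69.

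Of 52 secretory pathway genes tested, 3 were called higher (5.77%) and 2 lower (3.85%). The list median was 0.27, which lay 0.97 above the median of all genes. Creb3l1, a factor that drives collagen secretion in osteoblasts, ran from 9.59 over 127 to 584 CPM in 14 of 14 cells against a median of 0 and counts in 7 of 24 cells, 16.5-fold higher, or 31.1-fold without CD61- cell 30. Kdelr3, a retrieval receptor of the endoplasmic reticulum, was 10.7-fold higher, with medians of 264 and 0 CPM. Sec23a, of the vesicle coat that carries procollagen, was 4.08-fold higher and 2.09-fold without CD61+ cell 36. The chaperone gene Hspa5, a marker of the unfolded protein response, was not called and had medians of 998 and 1636 CPM. The called-lower genes Ddit3 and Dnajb9 belong to that response, and neither was called within the CD61+ gate; Ddit3 was 4.17-fold lower, or 2.66-fold without CD61- cell 13.

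Immune-type genes were lower in the osteoblast-like cells. Of 25 MHC class I and interferon-response genes, 0 were called higher and 7 lower (28%, beside 7.12% of all genes). The list median was -1.99, beside -0.69 for all genes. H2-D1, an MHC class I chain, had 192, 1162 and 4487 CPM against 2434, 6141 and 9041 CPM, 4.23-fold lower, but was not called within the CD61+ gate. Its partner B2m was not called, at 2.24-fold lower. Of 11 complement genes 6 were called lower (54.5%, beside 7.12% of all genes) and 1 higher (9.09%, beside 2.18%). C1ra, a protease of the classical pathway, was 52.7-fold lower (109-fold without CD61+ cell 9). Cd59a, a shield against complement, was 4.32-fold higher (10.5-fold without CD61- cell 31).

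Stress and growth genes gave few calls. Of 20 immediate early genes 1 was called higher, Klf2 (5%, beside 2.18% of all genes), and 3 lower, Ccn1, Btg2 and Ier5 (15%, beside 7.12%). None of the 3 was called lower within the CD61+ gate. The list median was -1.26 in all cells and -0.07 within that gate, and by the median of cells it was 0.013. Klf2 was 7.73-fold higher, or 19.1-fold without CD61- cell 31; Btg2 was 4.52-fold lower, or 2.45-fold without CD61- cell 34; and Ier5 was 6.14-fold lower, or 12.9-fold without CD61+ cell 36. Fos had medians of 2008 and 1653 CPM. Heat shock (14 genes), glycolysis (17) and mitochondrially encoded genes (11) had 0 calls in either direction. Lists this small would hold few calls at the shares of all genes tested, 2.18% higher and 7.12% lower. Ribosomal protein genes had 0 calls among 84, with 80 above a ratio of 1 and a list median of 0.79. The D-type cyclin gene Ccnd1 had counts in 11 of 14 against 3 of 24 cells (median 44.3 CPM against 0) and was 391-fold higher, with an interval of 510.4 to 15247 on the 2 CAR counts left without CD61- cell 3, while Birc5, of mitosis, was called lower and stood at sums of 0.364 against 8.27 CPM; without CD61+ cell 13 of the CAR side it was 2.41-fold lower.

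Markers of other cell types were summed over each cell. The 12 endothelial markers reached at most 11.7 CPM in osteoblast-like and 61.2 CPM in CAR cells, and the 6 neutrophil markers 269 and 478 CPM. The 8 macrophage and monocyte markers of the table summed to a median of 143 CPM and at most 4011 CPM in osteoblast-like cells, against 0 and 1280 CPM in CAR cells. Only 1 of them had counts in enough cells to be compared, Fcer1g, an adaptor chain of Fc receptors. It was called higher, 8.93-fold, with counts in 8 of 14 against 3 of 24 cells, while Ptprc was at 0.751 and 1.08 CPM at most; without CD61+ cell 4 of the CAR side the difference was 31.9-fold. Hemoglobin and other erythroid genes summed to at most 292 CPM in osteoblast-like and 11259 CPM in CAR cells, with medians of 3.31 and 1.98 CPM and 0 calls. Of 4 megakaryocyte markers tested, 1 was called higher, Gp1bb, and 0 lower. Gp1bb was 8.43-fold higher, or 37.4-fold without CD61+ cell 16 of the CAR side. Within the CD61+ gate this list also had 1 higher call. The part of such transcripts in the differences was not tested.

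Chondrocyte, fibroblast and muscle-type markers gave mixed values. Col2a1, the cartilage collagen, had counts in 11 of 14 cells (median 63.9, highest 516 CPM) against 1 of 24, and Comp, a cartilage matrix protein, was 6.05-fold lower, or 33.4-fold without CD61+ cell 3; Sox9, the cartilage factor, had counts in 2 of 14 and 9 of 24 cells. Lum and Dcn, proteoglycans of fibroblasts and osteoblasts, were 3.15- and 3.19-fold higher without a call. Acta2, smooth muscle actin, was called 12.4-fold higher only through CD61+ cell 10, which held 2756 CPM; without that cell it was lower, 0.0984 times the CAR level. That cell also had the highest Timp1, no Alpl and 0.685 CPM of Aqp1. Osteoclast markers had 0 calls among 5.

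Index-sort records gave a protein measure that the rule did not use. CD200, an immunoglobulin-family surface protein of skeletal progenitors, had an intensity of 679, 4226.5 and 7834 (lowest, median, highest; linear units as deposited) in osteoblast-like cells and 289, 831.5 and 4322 in CAR cells. Of the 14 osteoblast-like cells, 13 lay above the CAR median and 7 above every CAR cell, and the medians stood 5.08 to 1. Within the CD61+ gate the medians were 4054 and 1355, a ratio of 2.99. They were 4054 and 2619 in plate P1CD61plus, with 3 and 7 cells, and 4062.5 and 962 in plate P2CD61plus, with 10 and 7 cells. In the CD61- gate the 10 CAR cells had a median of 451.5, and the 37 Cxcl12-high cells under the Alpl threshold had one of 278. The Cd200 transcript had medians of 492 and 189 CPM and differed 2.64-fold, without a call.

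CD61 intensity and cell size were also higher on the osteoblast-like side. CD61 intensity had medians of 2181 and 1601.5, which the gates set in part; within the CD61+ gate they were 2265 and 1961, and 2 of 13 osteoblast-like cells lay above every CAR cell. Itgb3, the gene of CD61, was 23.7-fold higher, with counts in 11 of 14 against 3 of 24 cells, with an interval of 125 to 3763 on the 2 CAR counts left without CD61+ cell 16; it was called within the CD61+ gate too. Forward scatter area, a measure of cell size, ran from 136728 over 159111 to 218726 against 88487, 135502 and 172411, and all 14 osteoblast-like cells lay above the CAR median. Within the CD61+ gate its medians were 157613 and 142358. Divided by forward scatter, the CD200 ratio was 3.42. Which of gate, size and cell kind goes with CD200 cannot be told apart from these values.

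VCAM1 protein and transcript differed in degree. VCAM1 intensity had medians of 603 and 811, and 615 and 923.5 within the CD61+ gate, with 3 of 13 osteoblast-like cells above the CAR median there, whereas the Vcam1 transcript differed 13.3-fold. CD51, the integrin alpha V chain, had medians of 284.5 and 293.5, and its gene Itgav 137 and 216 CPM. CD45 intensity had medians of 937 and 650 in all cells and 905 and 908.5 within the CD61+ gate. Side scatter (medians 43626 and 42032) and the dye (68237.5 and 65495) differed by less than the range of either side. The channel shared by Ter119 and CD41 was lower in the osteoblast-like cells, with medians of 1233.5 and 1590.5, and 1238 and 2206 in plate P1CD61plus and 979.5 and 1590 in plate P2CD61plus. CD71 intensity had medians of 500 and 385 in all cells, 466 and 462 in plate P1CD61plus and 500 and 278 in plate P2CD61plus.

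**Figure D5:**
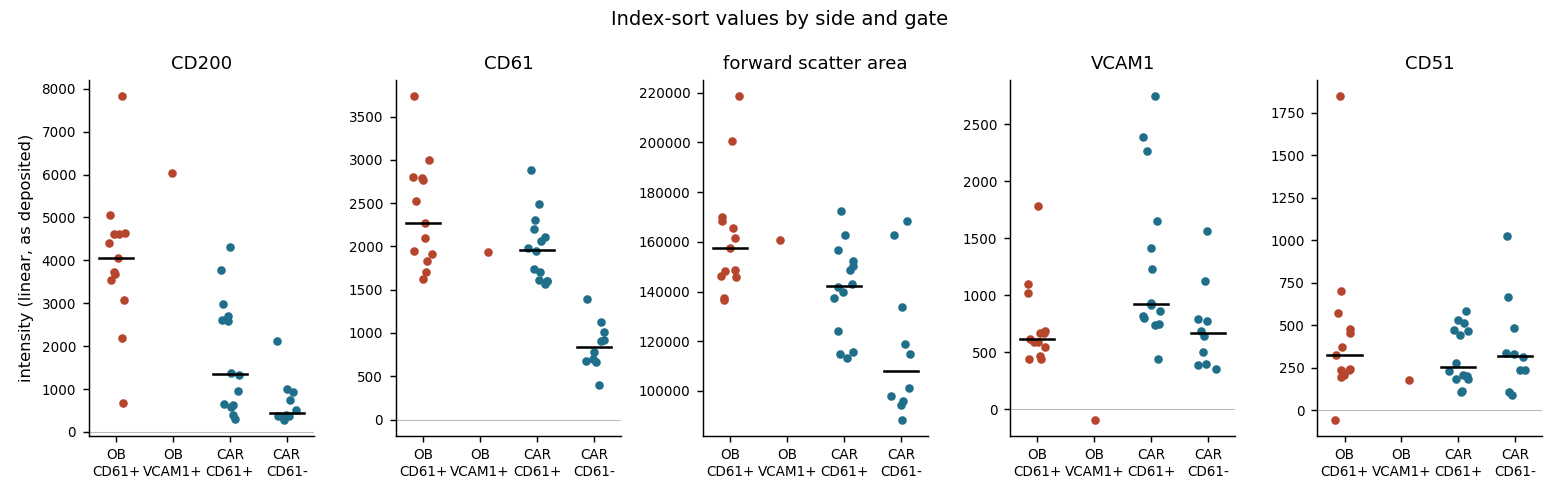
Index-sort intensity per cell for CD200, CD61, forward scatter area, VCAM1 and CD51, on linear axes, by side (OB osteoblast-like, CAR Alpl-positive) and gate; bars are medians of groups with more than 1 cell. Median CD200 is 4054 in the 13 CD61+ osteoblast-like cells and 1355 in the 14 CD61+ CAR cells, and the VCAM1+ cell has a VCAM1 value of -89.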

How the data were processed

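Single cells were index sorted and sequenced by Smart-seq2, and 1 table of 16580 genes by cell was used with 1 table of index-sort values. The deposited counts are the authors' estimated counts per gene, which the submitters' processing notes tie to kallisto 0.43.0, R 3.5.1 and mm10; the annotation was not given in the sources used here. They held 0 values that were not whole numbers and were used as counts, as deposited. The second deposited table holds the read count of each cell, a number of genes (those reaching 4 counts) and the fluorescence intensity of each channel on a linear scale, as the authors recorded it. Its 26 further columns of per-sample values were not used.

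The members and gene lists were chosen with earlier results of these data known. Gates came from the labels, cell numbers follow accession order, and no cell was left out. Counts were summed over the cells of a side and divided by the sums of all counts. Genes entered with at least 10 counts over both sides and counts in at least 5 cells, and a sum under 3 counts was raised to 3. Ratios carry 95% binomial intervals and shares Clopper-Pearson intervals, for counting error only. No test was made, because no label names an animal and the sides come from the readout. Named genes were the 14 called per direction with the largest ratio after leaving out the cell that most favoured it, by the smaller of summed and mean CPM ratios and without the 4 genes of the rule, mitochondrial, ribosomal protein and predicted genes. The up to 4 most abundant genes of each list and the genes of the sorted proteins were added. Not described above, though named toward the CAR side, were G0s2, Gpm6b, Ms4a4d, Il1rn, Marc1, Aldh1a2 and Sult1a1. Their differences, with the floor of 3 counts, ran from 1711-fold (Sult1a1) to 3284-fold (G0s2) lower in osteoblast-like cells. Other genes named in the text are members of the lists that were chosen after their values were seen. Values of 3 listed genes are not reported here. Doublets were not called; forward scatter width was the only value looked at for them, with medians of 86337.5 and 84262.5. On simulated counts for 16580 genes in this comparison, 84% of genes changed 8-fold and 100% of those changed 32-fold were called in either direction, and 0.731% and 1.06% of unchanged genes were called higher and lower. The changed genes, 50 per size and direction, were drawn from genes of moderate level counted in a fair share of cells. Genes were simulated independently around a shared profile, without the shift of the centre seen here. These rates therefore do not give the recovery or false calls of the real contrast. Gene positions came from GENCODE M21, which held 16526 of the 16580 symbols, and promoter sequences from RefSeq. Alternatives were other scalings, filters, thresholds, gates, plates and single cells left out; reducing the CAR side to 14 cells and leaving out 10 abundant genes were added after seeing the data. CPM are counts scaled to a common total. Scripts ran in Python 3.11.15 with scipy 1.17.1 for intervals, pandas 2.3.3 for tables, numpy 2.4.6 and, for figures, matplotlib 3.10.9; scaling factors came from edgeR 4.0.16 and DESeq2 1.42.0 in R 4.3.3.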

Additional observations from a re-analysis of the deposited data

How the results depend on the processing

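No paired analysis was possible because the results come from no test and the numbers of the cells follow accession order. The called counts depended on the scaling: 456 higher and 540 lower with TMM factors, 483 and 526 with DESeq2 factors, 1790 and 553 by the median of log2(CPM + 1), where genes absent from most cells of a side sit at 0 by construction. The share of calls that were higher was 23.4% as reported, 45.8% with TMM, 47.9% with DESeq2, 76.4% by the median and 38% without the 10 most abundant genes of the osteoblast-like side (380 and 619 calls, chosen after seeing the data). Thinning to 500000 counts left 575 lower calls, leaving out plate P2CD61plus gave 1498, and reducing the CAR side to 14 cells, also chosen after seeing the data, gave 390 and 1032. Thresholds of 2-fold and 8-fold gave 710 and 2073, and 122 and 395.

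List medians on the log2 scale moved as follows. Adipogenic genes were at -2.87 with TMM, -2.83 with DESeq2, -0.18 by the median of cells, -2.89 within the CD61+ gate and -5.53 without plate P2CD61plus. Secreted proteins were at -4.68 with DESeq2, -4.65 by the mean CPM, -4.66 thinned, -4.62 within the CD61+ gate and -8.16 without plate P2CD61plus. Niche factors were at -6.72 by the median and -9.63 without that plate, and mineralization at 0 and 0.76. The direction turned for immediate early genes by the median (0.013), and without plate P2CD61plus for collagens (-1.35) and genes of the sorted proteins (-1.91). Acta2 turned to -2.93 without that plate and to -3.07 with Spp1 and Col1a1 thresholds of 2000 CPM, which left 9 osteoblast-like cells; Cd3d turned to 0.39 without plate P1CD61plus. Within the CD61+ gate the CD200 ratio was 2.99 and the CD45 ratio 0.996; divided by forward scatter the CD200 ratio was 3.42.

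Leaving out 1 cell at a time gave 216 to 287 higher and 772 to 923 lower calls, and medians of 3.06 to 4.17 for mineralization, -6.16 to -4.80 for niche factors, -3.63 to -3.20 for adipogenic genes and -5.63 to -5.05 for secreted proteins, with a CD200 ratio of 4.58 to 5.71. Of 1796 values of 79 named called genes over 23 settings, 1716 kept direction and call, 77 missed the call and 3 turned. Settings that left the same 14 and 24 cells, such as a Cxcl12 threshold of 2500 CPM, gave the same 265 and 868 calls. Their values were fixed in advance. The 79 genes included Spp1, Col1a1 and Cxcl12 of the rule, and the leading ones were picked by their ratio with a cell left out. The tally is therefore no measure of how firm the calls are. The cause of the differences between settings was not tested.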

Other observations

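Of 261 tested olfactory receptor genes, a family outside the lists, 0 were called higher and 27 lower in the osteoblast-like cells, 10.3% beside 7.12% of all genes tested, with a median log2 ratio of -1.59 beside -0.69. Their summed level ran from 35.9 over a median of 135 to 465 CPM in the osteoblast-like cells, and from 119 over 324 to 1917 CPM in the Alpl-positive CAR cells, so the sides overlapped. Within the CAR side the median was 463 CPM in the CD61+ gate and 211 CPM in the CD61- gate. The 37 Cxcl12-high cells under the Alpl threshold ran from 101 over 251 to 1429 CPM. Of 48 vomeronasal receptor genes, 0 were called higher and 3 lower (6.25%). Both shares lie near that of all genes. Some members of these families are close copies, whose reads the counting may have shared out.

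Immune families had more lower than higher calls, with values that include members of the lists. Of 24 tested genes of the H2 family, 0 were called higher and 9 lower (37.5%), with a median of -2.15. Of 36 Schlafen and interferon-induced GTPase genes, 1 was called higher (2.78%) and 12 lower (33.3%), with a median of -3.26. Over all genes tested 2.18% were called higher and 7.12% lower, with a median of -0.69.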
